A study of Mus musculus with 10 samples.

Results

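The 48 genes described here encode splicing factors that are named by family: heterogeneous nuclear ribonucleoproteins (hnRNPs), SR proteins, the SF3a and SF3b subunits of the U2 snRNP, and Prp proteins. They were chosen by name and level. Of 51 gene names in the window files that start with Hnrnp, Srsf, Sfrs, Sf3a, Sf3b or Prpf, 2 (Hnrnpa2b1 and Hnrnpc) were left out, and 1 lay under a mean RPKM (reads per kilobase of transcript and per fixed number of reads) of 1 in the wild-type inputs. That gene was Srsf12, with a mean RPKM of 0.276, and the lowest gene inside the threshold was Prpf40b with 4.97. The 48 members stood among 11306 genes above the threshold and 30419 names in all. They were 16 hnRNP genes, 11 SR genes, 3 SF3a genes, 5 SF3b genes and 13 Prp genes. All but 1 carry a current symbol, and Sfrs18 is an older name of Pnisr, an SR-related gene counted with the SR genes by its name.

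Splicing removes introns in steps that these families serve in turn. SR proteins bind exons and recruit the spliceosome, while hnRNPs coat the nascent transcript and often oppose exon use. SF3a and SF3b hold the U2 snRNP on the branch point. Prp proteins belong largely to the U4/U6.U5 tri-snRNP and to the Prp19 complex, which bring the spliceosome to its active form. N6-methyladenosine (m6A) is the commonest internal modification of messenger RNA. It is placed mostly in the last exon near the stop codon and in long internal exons, by a complex whose catalytic subunit is Mettl3.

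Fragmented total RNA of J-1 mouse embryonic stem cells, an established line grown feeder free, was precipitated with an antibody against m6A (IP), and each IP had a library of unprecipitated RNA (input). A first pair had no stated genotype, 2 pairs were labelled wild type for Mettl3 (WT), and 2 pairs were labelled Mettl3 knockout (KO). The labels do not say how the knockout was made, whether it is 1 clone, or whether replicates came from separate cultures, so p-values reflect only how far these libraries lie apart, and that spread may be technical. With 2 libraries against 2, an exact permutation test of a single value cannot go below 0.333, so tests were fitted over all genes, regions or exons at once.

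Coverage moved in whole steps in each library, which gave relative depth but no read number. The WT and KO inputs had between 0.284 and 0.516 of the depth of the first input, and the WT and KO IPs between 0.0606 and 0.159 of the first IP. Of all windows, 50.5 and 65.4% had no IP coverage in WT, and 74.3 and 67.6% in KO. Input coverage of Mettl3 was 4.79 and 4.67 in WT versus 3.14 and 3.38 in KO, a log2 change of -0.43 (SE 0.072, limma adjusted p = 0.00259); whether the deleted part lies in these windows is not given in the sources used here. All 10 stem cell markers were covered, and their summed coverage was 2817 and 2906 in WT, compared with 2305 and 2157 in KO. Most of that difference lay in Dppa5a (1525 and 1539 against 1121 and 1029). Nanog (198 and 206 against 166 and 151), Tdgf1, Klf4, Sox2, Esrrb and Zfp42 were also lower in both KO inputs than in both WT inputs. Pou5f1 was at 246 and 260 against 252 and 248. Utf1 was higher in KO, at 78.0 and 83.2 against 106 and 95.8, and so was Lin28a. Of 8 fibroblast markers 1 reached a coverage of 1, and of 4 trophectoderm markers 1, Krt8; the 4 summed to 3.82 and 3.72 in WT against 10.6 and 10.7 in KO. The part of these shifts in the results was not tested. In bulk RNA, fewer cells of a type and less RNA per cell cannot be told apart.

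The input level of splicing factor genes was close in KO and WT. Level is the mean input coverage per window of a gene, scaled by the authors, and so is comparable between genes per length. Of the 48 members, 3 rose and 4 fell in KO, or 14.6%, where 26.6% of the 11211 genes tested passed the same test (13% higher, 13.6% lower). The median log2 change of the members was -0.051, and that of all genes was -0.0048. The change was smaller than 0.1 in size in 27 members, or 56.2%, and in 38.8% of all genes tested. It was smaller than 0.3 in 47 members, and in 83.1% of all genes. Members were covered more deeply than most genes, with a median WT coverage of 30.6 against 5.79 over all genes tested. Both KO inputs lay above both WT inputs in 8 members and below them in 21, where the shares over all genes were 31.7% and 34%.

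**Figure D1:**
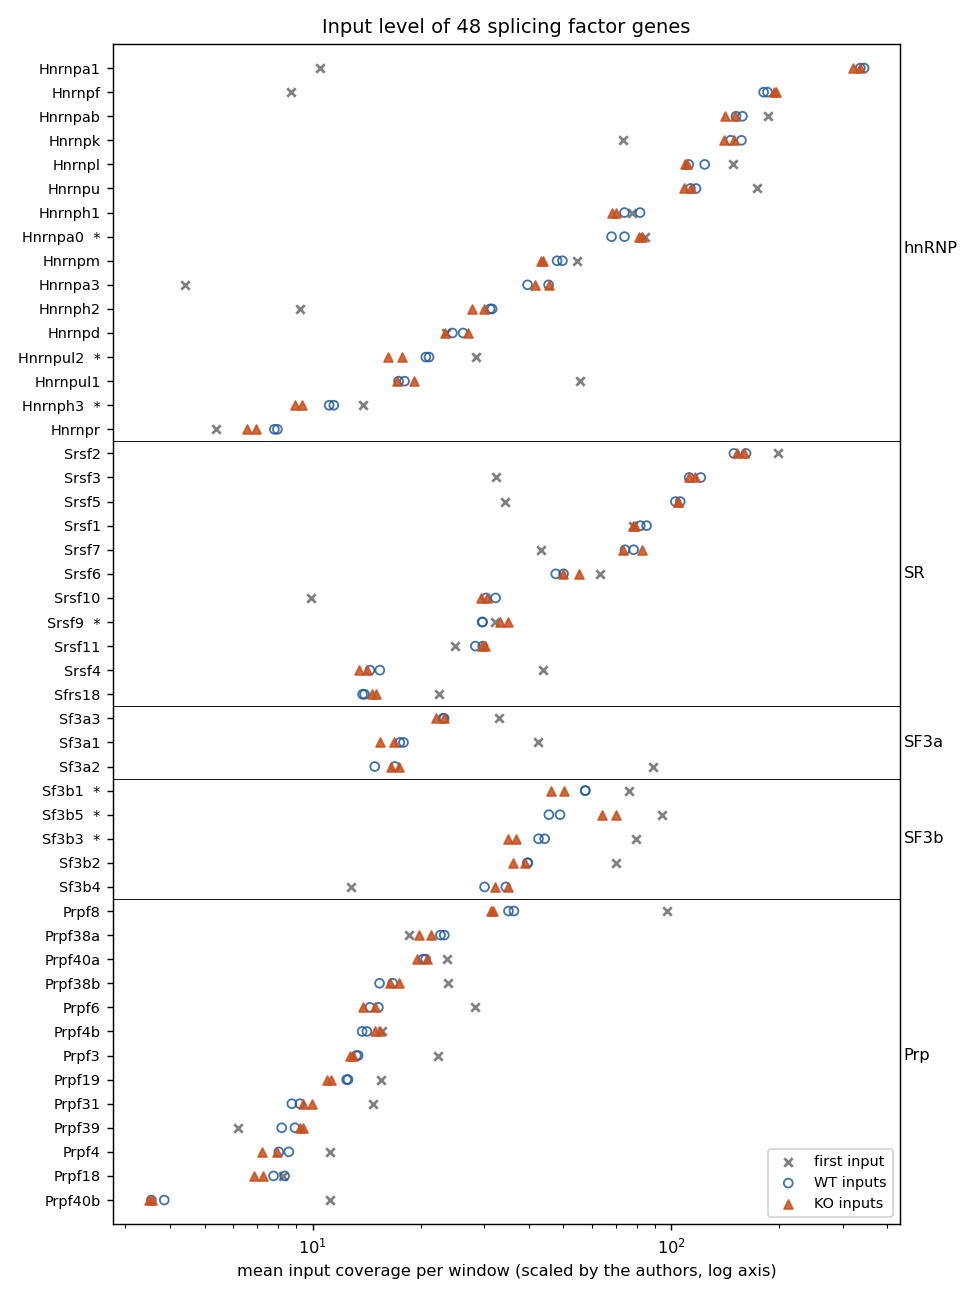
Mean input coverage per window (log axis) of the 48 members in each of the 5 inputs, grouped by family and ordered by WT level. Circles are the 2 WT inputs, triangles the 2 KO inputs and crosses the first input; a star marks the 7 members past the limma threshold. KO and WT symbols lie close for nearly all members, and crosses lie far to the left for Hnrnpa1, Hnrnpf and Hnrnpa3.

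The SF3b family held the largest rise and 2 of the 4 falls. Sf3b5 encodes the smallest subunit of SF3b and has a single exon. Its input coverage was 45.6 and 48.9 in WT versus 63.9 and 70.0 in KO, with 94.3 in the first input. Both KO values lay above both WT values, and the log2 change was 0.49 (SE 0.072, limma adjusted p = 0.00121). Sf3b1, the large subunit that clamps the branch point helix, was at 57.5 and 57.5 in WT, compared with 46.1 and 50.2 in KO. It fell by 0.25 on the log2 scale (adjusted p = 0.0223). Sf3b3, a scaffold subunit, was at 42.6 and 44.3 in WT against 36.8 and 35.1 in KO, and fell by 0.27 (adjusted p = 0.0142). In both genes the KO inputs lay below the WT inputs without overlap. Sf3b2 had 39.8 and 39.7 in WT against 39.2 and 36.2 in KO, and Sf3b4 had 30.1 and 34.5 against 35.1 and 32.3; neither passed the test. None of the 3 SF3a genes passed. The highest of them, Sf3a3, was at 23.3 and 23.1 in WT versus 22.02 and 23.2 in KO.

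No Prp gene passed the test. Prpf8, the large protein at the catalytic centre of the spliceosome, had the highest level of the family, with 36.4 and 35.1 in WT, compared with 31.8 and 31.3 in KO. Its KO values lay below its WT values, at a log2 difference of -0.17 (adjusted p = 0.0626). The log2 differences of the 13 genes ran from -0.17 to 0.11, and 9 were below 0. Prpf40b, at 3.55 and 3.86 in WT against 3.57 and 3.50 in KO, had the lowest level of all members.

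Among SR genes Srsf9 rose. It was at 29.7 and 29.8 in WT versus 33.4 and 35.0 in KO, a log2 change of 0.19 (adjusted p = 0.0445). The other 10 did not pass. Srsf2, the SR gene of the highest level, was at 149 and 161 in WT, compared with 160 and 152 in KO, and the groups overlapped. Srsf3, the smallest SR protein and a regulator of RNA export, was at 112 and 121 in WT against 116 and 112 in KO. Srsf5 was at 106 and 103 against 105 and 104.

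The hnRNP genes held 1 rise and 2 falls. Hnrnpa0 was at 68.1 and 74.0 in WT versus 82.8 and 81.3 in KO, a log2 change of 0.21 (adjusted p = 0.0489). Hnrnpul2, of the U-like hnRNPs, was at 20.7 and 21.1 in WT, compared with 17.7 and 16.3 in KO, and fell by 0.28 (adjusted p = 0.0132). Hnrnph3, the shortest of the H family, was at 11.5 and 11.1 in WT against 9.32 and 8.96 in KO, and fell by 0.28 (adjusted p = 0.0132). These 3 genes showed no overlap between KO and WT. Hnrnpa1 had the highest level of all members, with 336 and 345 in WT versus 320 and 336 in KO; its change was -0.053 and did not pass. Of the 7 calls, only that of Sf3b5 was kept when any 1 library was left out. Hnrnpa0 lost its call without any 1 of the 4 libraries. Srsf9 lost it without KO 2, WT 1 or WT 2, and Sf3b1 without KO 1, WT 1 or WT 2. Hnrnph3 lost it without WT 1, and Sf3b3 and Hnrnpul2 without WT 2. With replicate number as a block, Srsf9 (adjusted p = 0.0608) and Hnrnpa0 (0.0590) did not pass.

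Other splicing genes were counted in 4 lists. Of 16 genes of the U1 and U2 snRNPs, 3 rose and 0 fell: Snrpd2, a core Sm protein, was at 81.3 and 84.6 in WT, compared with 106 and 105 in KO, and Snrpb2 and Snrpg rose with it. Of 22 tested genes of the U4/U6.U5 snRNP and the Prp19 complex, 1 rose (Bcas2) and 4 fell (Cdc5l, Snrnp200, Plrg1 and Syf2). Cdc5l, a core subunit of the Prp19 complex, was at 50.6 and 52.4 in WT against 35.2 and 33.6 in KO (log2 change -0.57, adjusted p = 0.000275). Of 16 SR-related proteins and their kinases 1 rose, the kinase gene Clk4, and 0 fell. Of 28 other regulators 3 rose (Taf15, Ptbp2 and Elavl1) and 1 fell. That gene was Mbnl2, an RNA-binding regulator of tissue-specific exons, at 6.08 and 6.52 in WT versus 3.70 and 4.14 in KO. The shares past the test in the lists were 18.8, 22.7, 6.25 and 14.3%, below the 26.6% of all genes. Calls of single genes in these lists were not read with a library left out. Some lay near the threshold (limma adjusted p = 0.0321 for Snrpg, 0.0412 for Bcas2 and 0.0427 for Elavl1).

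The share of input coverage on single exons was tested next, since a gene level cannot show a change of exon use. Of 572 member exons in 46 genes, 0 passed, and 0 of 99177 exons passed over all genes. At an unadjusted limma p under 0.05 there were 26 member exons, or 4.55%, against 5.71% of all exons. The smallest p values belonged to exon 6 of Hnrnpul2, exon 1 of Prpf39 and exon 2 of Srsf11 (adjusted p = 0.843 in each). Exon 6 of Hnrnpul2 had a coverage of 30.7 and 31.3 in WT, compared with 17.6 and 18.0 in KO. Relative to its gene this was a log2 share of 0.55 and 0.55 in WT against -0.0083 and 0.14 in KO. Exon 2 of Srsf11 had 32.5 and 30.3 in WT versus 42.6 and 49.6 in KO. Both exons were separated between the groups, and neither passed.

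m6A regions were mapped in the first IP, the deepest of the series, as runs of at least 2 consecutive windows with a winscore of at least 2. The winscore is the authors' log2 enrichment of a window over its gene's median in the IP, relative to the same in the input. By this rule 20 of the 48 members, or 41.7%, held 27 regions, against 54.3% of the 11306 genes, which held 10181. Of the members, 13 held 1 region, 7 held 2 and 28 held none. Regions lay in 7 of 11 SR genes, 5 of 16 hnRNP genes, 3 of 5 SF3b genes, 5 of 13 Prp genes and 0 of 3 SF3a genes. Over all genes the share was lower at high levels, so members were also read within ranges of WT RPKM. Between 20 and 100 RPKM, 11 of 25 members held a region, against 38.9% of all genes. At 100 RPKM or more it was 3 of 9, against 14.5%, and between 5 and 20 it was 6 of 13, against 60.1%.

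The first input lay well below the WT inputs in 9 members and well above them in 6, which bears on that map. Coverage of Hnrnpa1, the prototype hnRNP A/B protein, was 10.5 in the first input and 336 and 345 in WT. Hnrnpf was at 8.70 in the first input and 181 and 185 in WT, and Hnrnpa3 at 4.42 and 39.7 and 45.5. Coverage of the first input was under 0.5 of the WT mean in 9 members (Hnrnpa1, Hnrnpa3, Hnrnpf, Hnrnph2, Hnrnpk, Sf3b4, Srsf10, Srsf3 and Srsf5), and above 2 times in 6. Over all genes 9.93% were under and 27.2% above these bounds. Of the 9 low members 2 held a region in the first map, of the 6 high members 0, and of the other 33 it was 18. The column names of the first pair carry the word unique, and those of the other pairs do not; the part of read mapping in these values was not tested. Genes with close copies in the genome are uncertain for this reason.

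The deposited exons are numbered along the genome, so on the minus strand exon 1 is the last exon of the transcript. Among 3792 plus-strand genes the higher-numbered end exon was the longer in 94.1%, and among 3735 minus-strand genes in 6.21%. Strand was taken from the RefSeq promoter table for 42 members. Of the 27 regions 16, or 59.3%, lay in the last exon, against 48.4% of all regions. A further 4 lay in the first exon (Hnrnpab, Srsf1, Srsf2 and Srsf7), 2 in internal exons, 3 in single-exon genes and 2 in an end exon of a gene without a strand in the table. First exons held 4.17% of all regions and internal exons 25.2%. End exons of genes without a strand held 18.9% of all regions but 7.41% of member regions. The shares by place are therefore not over like sets. The 2 internal regions lay in exon 2 of Prpf4b, a kinase of the tri-snRNP, which spans 24 windows, and in exon 3 of Hnrnpm, which spans 17.

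The strongest region of the first IP lay in Prpf4, a subunit of the U4/U6 snRNP. It covered windows 13 to 23 of the last exon, exon 14. Its mean winscore was 3.99 in the first IP, 4.77 and 5.04 in WT, compared with 5.51 and 5.18 in KO. The KO values lay above the WT values, and the region did not pass the test (adjusted p = 0.846). IP over input at this region, the log2 ratio of coverage centred on windows outside regions, was 4.74 and 5.001 in WT against 4.48 and 4.88 in KO, and overlapped. A second region of the same exon, windows 3 to 11, had a winscore of 2.81 in the first IP, 3.68 and 4.03 in WT versus 4.28 and 4.19 in KO.

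The highest region of an SR gene was in the last exon of Srsf5, windows 5 to 7. Its winscore was 3.96 in the first IP, 4.89 and 5.46 in WT, compared with 4.07 and 4.33 in KO. IP over input was 4.81 and 4.80 in WT against 4.31 and 4.001 in KO. By both measures KO lay below WT without overlap, and neither passed (adjusted p = 0.645 and 0.312). Coverage behind this region was high, with 2328 and 2012 in the WT IPs and 1625 and 1456 in the KO IPs, over an input between 156 and 174.

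The highest SF3b region covered windows 11 to 13 of Sf3b5, the gene whose input level rose. Its winscore was 3.44 and 2.99 in WT versus 3.86 and 3.91 in KO, and its IP over input was 4.93 and 4.98 in WT, compared with 4.64 and 4.93 in KO. IP coverage at the region was 1036 and 1106 in WT against 1150 and 1568 in KO. The winscore was higher in KO, the ratio to input overlapped, and neither passed. The highest hnRNP region covered windows 5 to 9 of exon 1 of Hnrnpul2, whose input level fell. Its winscore was 4.73 and 5.36 in WT versus 4.13 and 4.59 in KO, and its IP over input was 5.03 and 4.93 in WT, compared with 4.09 and 4.70 in KO. Here KO lay below WT by both measures, and neither passed (adjusted p = 0.739 and 0.363).

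**Figure D2:**
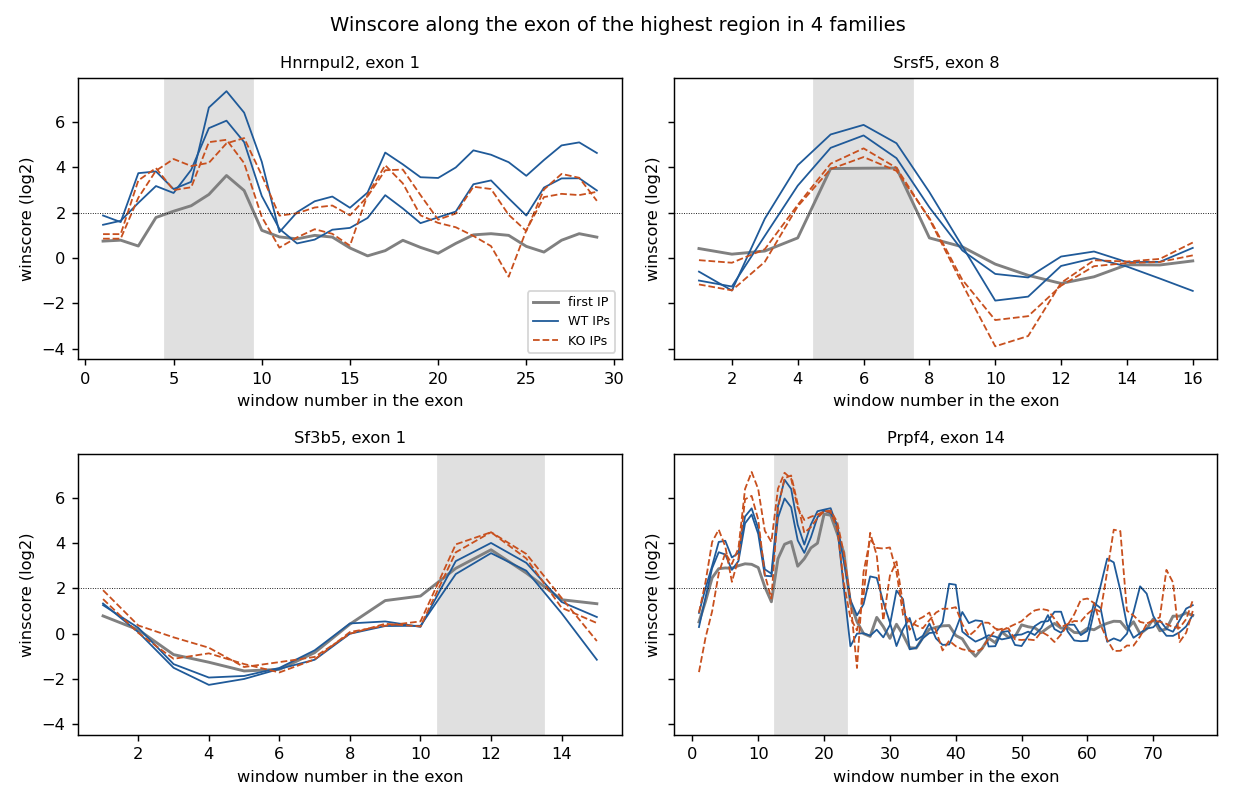
Winscore (log2) by window number along the exon that holds the highest region of the first IP in the hnRNP, SR, SF3b and Prp families. Grey lines are the first IP, solid lines the 2 WT IPs, dashed lines the 2 KO IPs; shading marks the region and the dotted line a winscore of 2. In each exon WT and KO lines rise at the shaded windows, with KO below WT in Srsf5 (4.07 and 4.33 against 4.89 and 5.46).

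Most member regions were still enriched in KO. A mean winscore of at least 2 was held by 26 and 23 of the 27 regions in the WT IPs and by 22 and 25 in the KO IPs. In all 4 IPs it was held by 19 regions, or 70.4%, against 71.3% of all regions. The median winscore of the member regions was 3.44 and 3.73 in WT against 4.07 and 3.79 in KO, and the median change was -0.079, as over all 10181 regions. The sign of that median rested on single libraries: it was 0.095 without KO 2, 0.012 without WT 1 and 0.28 without WT 2 in members, where it was 0.015, -0.27 and 0.098 over all regions. Both KO values lay above both WT values in 7 regions and below in 6, where the shares over all regions were 17.5% and 22.6%. In the winscore test 0 member regions passed and 0% of all regions passed; at an unadjusted limma p under 0.05 there was 1 member region and 8.27% of all regions.

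IP over input was lower in KO at most member regions, as it was at most regions of the series. It was lower in 22 of 27 member regions, and in 77.8% of the 9603 regions tested. This direction is relative to windows outside regions: centred on the regions themselves, it was lower in 14 of 27 member regions, with a median change of -0.0017, and in 50.9% of all regions. The median change was -0.43 in members and -0.45 over all. Medians of the member regions were 3.42 and 3.77 in WT versus 3.12 and 3.19 in KO. Both KO values lay below both WT values in 15 regions (46.3% of all regions) and above in 3 (7.32% of all). No region passed (0 of 9603), and at an unadjusted limma p under 0.05 there were 2 member regions and 16.6% of all regions. One of the 2 was the last exon of Prpf4b, windows 1 to 7, at 4.27 and 4.43 in WT, compared with 3.20 and 3.66 in KO (adjusted p = 0.288). The other lay in the first exon of Srsf7, an SR protein that also acts in 3′ end processing, and went the opposite way: 0.58 and 0.34 in WT against 2.29 and 2.47 in KO (adjusted p = 0.274). This Srsf7 region was also the 1 region with an unadjusted p under 0.05 in winscore, with 2.31 and 3.73 in WT versus 4.63 and 4.39 in KO.

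**Figure D3:**
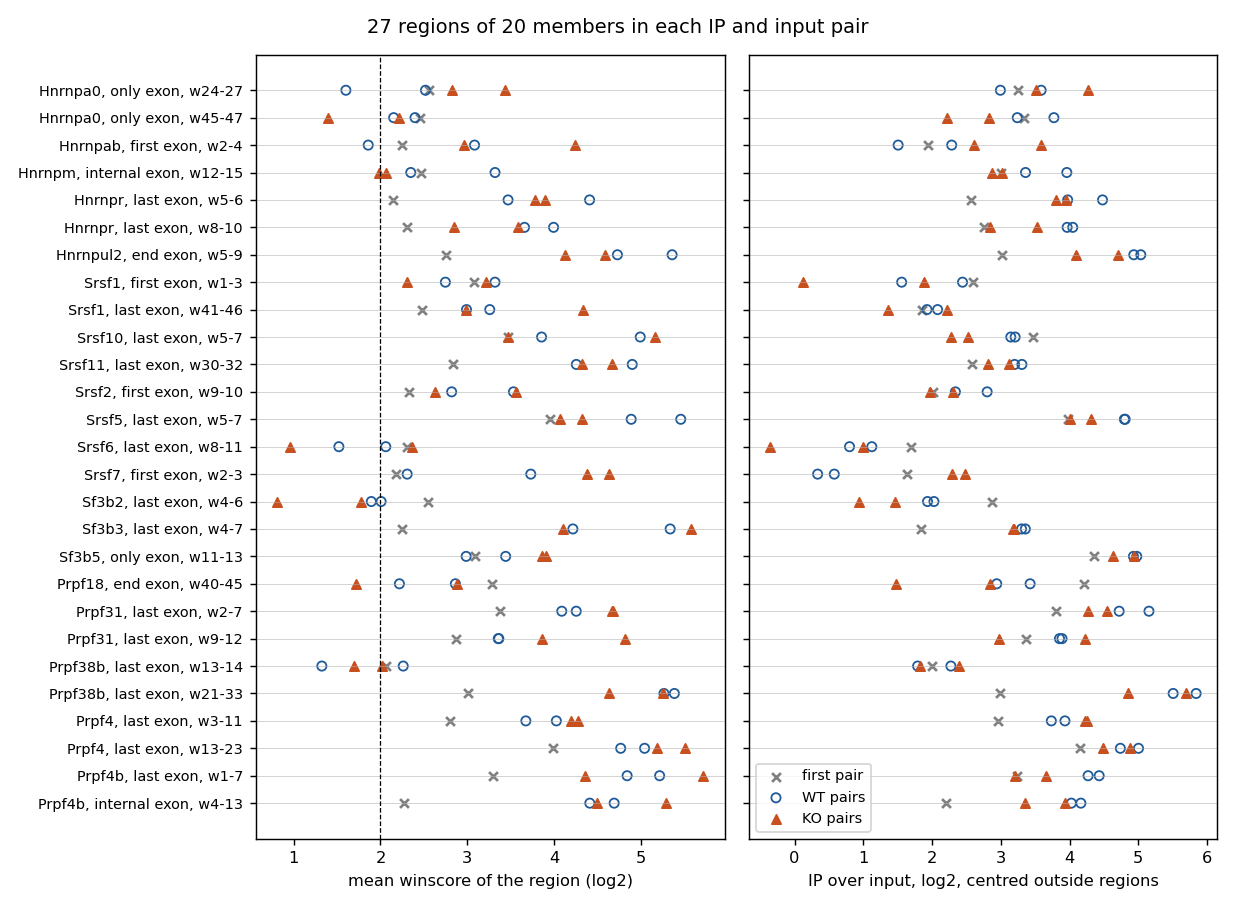
Mean winscore (log2, left) and IP over input (log2, centred on windows outside regions, right) of the 27 member regions in each of the 5 pairs. Crosses are the first pair, circles the 2 WT pairs, triangles the 2 KO pairs, and the dashed line marks a winscore of 2. KO triangles lie left of WT circles for 15 regions in the right panel, and far to their right for the first exon of Srsf7.

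A map drawn from the mean of the 2 WT IPs found regions in 45 of the 48 members, or 93.8%, against 82.9% of all genes. It held 103 member regions, and Prpf3, Srsf4 and Srsf9 had none. The winscore is relative to the median of a gene, so it can miss enrichment over most of its windows. The last exon of Srsf4, 30 of its 48 windows, had an IP over input of 2.50 and 2.49 in WT and 2.25 and 2.45 in KO. That of Prpf3 was at 0.89 and 0.79 in WT, and that of Srsf9 at -0.27 and -0.19. First exons held 18 of the 103 member regions, or 17.5%, against 8.54% of all regions of that map. Regions of genes without a strand are in both totals. Regions chosen on the WT IPs tend to read lower in other libraries, so their change in KO is given as a description only. In first exons 13 of the 18 had a higher mean winscore in KO, with a median change of 0.99, where 64.7% of all first-exon regions did, with a median of 0.34. In internal exons 18 of 26 did, with a median of 0.26, where it was 44.4% and -0.13 over all genes. In last exons 12 of 35 did, with a median of -0.29, where it was 35.5% and -0.33 over all genes. Both KO IPs lay above both WT IPs in 9 of the 18 first-exon regions of the members, and in 27.1% of all first-exon regions. For internal exons it was 5 of 26, and 16.9% of all internal regions.

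IP over input was then measured over whole first and last exons, without choosing regions from a map, with internal exons left out. It took genes with a strand, more than 1 exon, a mean WT RPKM of at least 1 and an exon input of at least 1. Its centring still used windows with a winscore under 1 in the first IP. This measure was added after the data were seen. Of 39 members with a first exon covered in the input, 33 had a higher mean in KO, or 84.6%, against 63.4% of the 4635 genes tested. The median change was 0.81 in members and 0.29 over all genes. With 1 library left out it ran from 0.66 to 0.94 in members and from 0.11 (without KO 2) and 0.16 (without WT 1) to 0.42 over all genes. Both KO values lay above both WT values in 19 members (29.4% of all genes) and below in 2 (12.3%). Members were not matched with all genes by level for this measure. Their median WT coverage was 30.6, against 5.79 over all genes tested for level, and a pseudocount of 1 shrinks changes at low coverage. The part of level in the difference from all genes was not tested. The limma test called 0 members and 0 genes (smallest adjusted p = 0.556 in members); at an unadjusted p under 0.05 there were 8 members, 7 of them higher in KO, and 8.26% of all genes. In the last exon 11 of 41 members had a higher mean in KO (22.6% of 7516 genes), the median change was -0.14 in members and -0.36 over all genes, and 0 passed. Both KO values lay above both WT values in 1 member there (6.72% of all genes) and below in 16 (47.5%). The difference of first and last exon within a gene, from which the centring of a library drops out, was higher in KO in 34 of 39 members and in 74.7% of 4577 genes. Both KO values lay above both WT values in 17 members (40% of all genes) and below in 1 (6.45%). The median change was 0.86 in members and 0.67 over all genes, and 0 passed, with 7 members and 13.4% of all genes at an unadjusted p under 0.05.

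The largest first-exon differences came from several families. These first exons are short, at 5 windows in Prpf6, 3 in Sf3a3, 4 in Hnrnpm and 3 in Hnrnpa3. Prpf6, the tri-snRNP bridging protein, had an IP coverage of 2.01 and 1.48 in WT, compared with 21.7 and 19.1 in KO, over an input of 11.8 and 11.2 in WT against 7.93 and 11.6 in KO. Its IP over input was -1.12 and -1.19 in WT versus 2.35 and 1.62 in KO, a log2 difference of 3.14 (SE 0.62, adjusted p = 0.556). In the first pair it was 0.98, above both WT values. In its last exon IP over input was 1.95 and 1.498 in WT, compared with 1.41 and 1.97 in KO, so only the first exon separated the groups. Sf3a3, a subunit that joins SF3a to the U2 snRNP, had IP coverage of 12.3 and 14.6 in WT against 61.3 and 58.4 in KO in its first exon, over inputs between 23.5 and 28.4. Its IP over input was 0.049 and 0.22 in WT versus 2.35 and 1.96 in KO, with 0.87 in the first pair. Its difference was 2.02, and KO lay above WT.

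Hnrnpm, a regulator of alternative exons, had the highest first-exon IP signal of these genes. IP coverage was 201 and 364 in WT versus 1056 and 1103 in KO, over an input between 17.0 and 22.2. IP over input was 4.09 and 5.46 in WT, compared with 6.79 and 6.57 in KO (difference 1.91, SE 0.51), while its last exon was at -0.70 and -1.21 in WT against -0.93 and -1.23 in KO. In the first pair its first exon was at 2.12, below both WT values. Hnrnpa3 had IP coverage of 38.1 and 67.7 in WT versus 161 and 175 in KO in its first exon. Srsf5 separated the 2 ends of one transcript: its first exon was at 1.52 and 1.61 in WT, compared with 3.27 and 2.57 in KO, and its last exon at 2.73 and 2.66 in WT against 2.21 and 1.95 in KO. The first exon of Srsf5 was at 0.28 in the first pair, also below both WT values. A few members went the other way in the first exon. Srsf10, an SR protein that represses splicing, was at 0.73 and 1.81 in WT versus 0.27 and 0.37 in KO. Prpf4b was at 0.49 and 0.40 in WT, compared with -1.04 and -0.91 in KO, where IP coverage was low (1.66 and 1.49 in WT, 0 and 0.406 in KO).

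**Figure D4:**
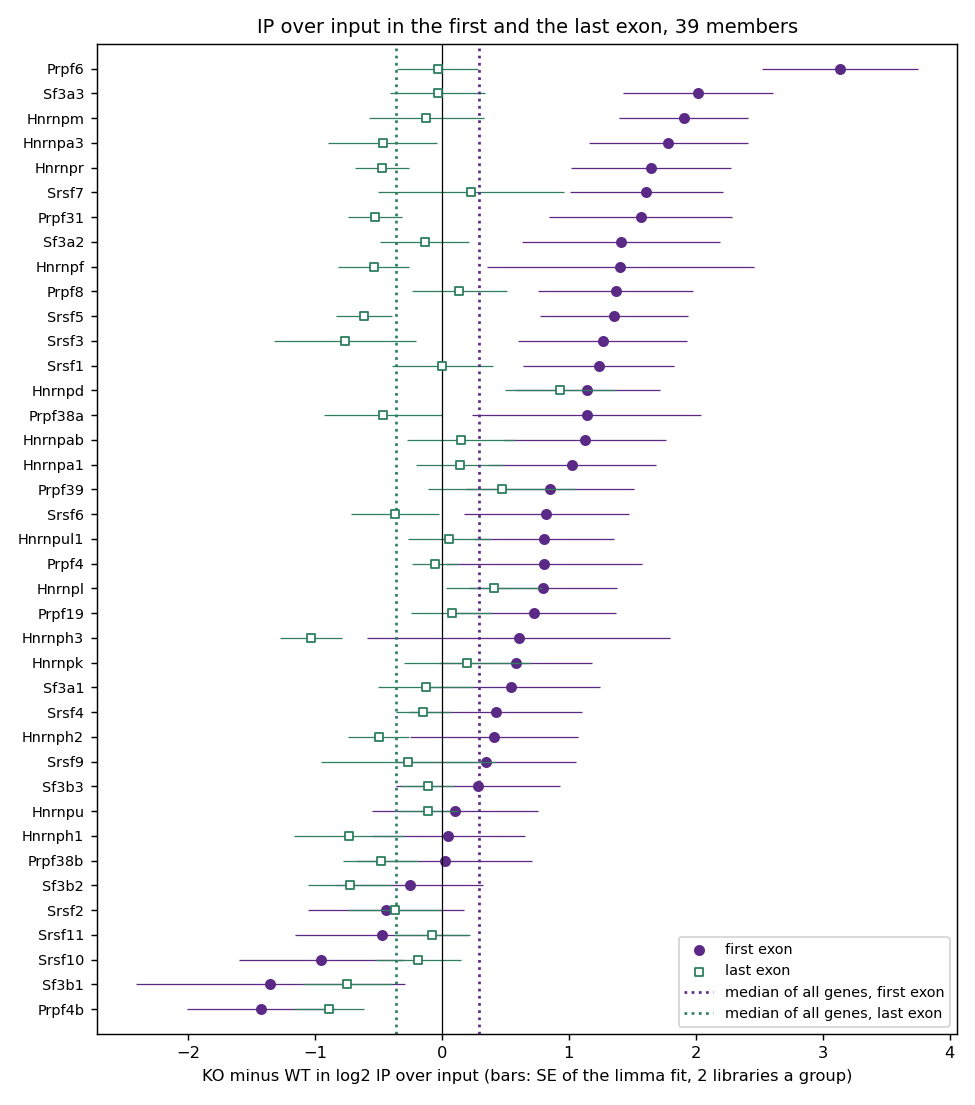
KO minus WT in log2 IP over input, over the whole first exon (filled circles) and the whole last exon (open squares) of 39 members, ordered by the first exon. Bars are standard errors of the limma fit over 2 libraries a group, and dotted lines are the medians of all genes (0.29 in the first exon, -0.36 in the last). Most first-exon circles lie right of 0, with Prpf6 at 3.14, while most last-exon squares lie at or left of 0; 0 members passed the test in either exon.

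The annotated transcript starts of these genes are shown for the first exons just described. Each line gives 30 bases before the start and 20 from it, 5′ to 3′ on the gene's strand, with the first transcribed base in capitals, from the RefSeq promoter table of build GRCm38.p6. Shown are the 6 members with the largest first-exon rise in mean among those with 1 start in that table, then the 2 with both KO values below both WT values; the genes were chosen after their values were seen. The gene model of the files is on another build and may start elsewhere.
Prpf6 (chr2:181601289-181601338, plus strand): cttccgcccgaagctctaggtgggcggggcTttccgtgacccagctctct
Sf3a3 (chr4:124714831-124714880, plus strand): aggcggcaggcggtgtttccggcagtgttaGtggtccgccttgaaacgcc
Hnrnpm (chr17:33685439-33685488, minus strand): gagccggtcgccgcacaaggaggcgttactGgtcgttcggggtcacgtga
Hnrnpa3 (chr2:75659229-75659278, plus strand): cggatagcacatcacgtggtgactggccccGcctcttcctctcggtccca
Srsf7 (chr17:80207286-80207335, minus strand): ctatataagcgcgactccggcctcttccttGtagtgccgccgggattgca
Prpf31 (chr7:3629955-3630004, plus strand): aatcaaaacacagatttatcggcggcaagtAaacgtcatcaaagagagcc
Srsf10 (chr4:135856041-135856090, plus strand): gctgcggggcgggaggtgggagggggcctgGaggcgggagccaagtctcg
Prpf4b (chr13:34875499-34875548, plus strand): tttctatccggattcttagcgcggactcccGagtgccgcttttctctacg
Of these 8 starts 1 is an A, that of Prpf31, a tri-snRNP assembly factor. The base was read as a feature that played no part in the choice, with no test. The first-exon mean was higher in KO in 64.4% of 997 genes with A at the start and in 63.5% of 2937 with another annotated base, with median changes of 0.32 and 0.29. Among members it was higher in 9 of 9 with A and in 19 of 23 with another base, with medians of 0.82 and 0.85. An A stands at the start in 36.3% of the 22862 RefSeq promoters with 1 start.

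The deposited RPKM columns were set against the tracks, since they could stand in for the level. Over the 48 members the WT columns followed the input coverage of the same library (Pearson r of log2 values 0.996 in each, a description across genes). The columns labelled KO followed the KO IP coverage (r of 0.983 and 0.989) more closely than the KO input coverage (0.749 and 0.693). Sf3b5 was at 46.9 and 50.2 RPKM in the WT columns and at 262 and 394 in the KO columns, beside KO input coverage of 63.9 and 70.0 and KO IP coverage of 278 and 367. RPKM in KO was therefore not used for the level.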

How the data were processed

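RNA of J-1 mouse embryonic stem cells was measured in 5 IP and input pairs, grouped by the genotype and titles in the labels. Libraries kept the strand (dUTP), per the labels' protocols, and the submitters' processing notes name TopHat 1.1.3 and the build mm9. How reads were filtered, scaled and assigned to genes or to several positions is not stated in these sources, which leaves overlapping genes and close copies uncertain. For every exon window the deposited files hold the scaled coverage signal of IP and input, its median over the gene and a log2 winscore, per the file headers. This deposited log2 winscore equals log2 of ((IP + 1)/(IP gene median + 1)) over the same in the input, in every window to within 5e-14. A deposited table gives RPKM per gene, per the file headers.

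Tests used limma 3.58.1 in R 4.3.3 (lmFit, then eBayes with trend; p-values adjusted by Benjamini-Hochberg, called under 0.05) on 2 WT against 2 KO libraries, fitted over all features. The fits were also run on simulated data, whose recovery is not given here. A test that called 0 features therefore does not show that nothing changed. Input level was log2(mean coverage + 1) in genes with a coverage of at least 1 in at least 2 of 4 inputs; fold changes on this scale understate changes of low genes. Regions were taken from the first IP, which is on neither side of the comparison, in genes with a mean WT RPKM of at least 1. IP over input was log2((IP + 1)/(input + 1)) with an input of at least 1, minus the library's median outside regions (winscore under 1) over 5974 genes. Exon share was log2((exon coverage + 1)/(gene coverage + 1)) in exons of at least 2 windows. Planning named the same tests; the tests of whole first and last exons were added later. Tables and figures used Python 3.11.15, numpy 2.4.6, pandas 2.3.3 and matplotlib 3.10.9.

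The members, the lists and the rules were chosen with earlier results of these data known. Members named with a test are those past the threshold in level, those with the smallest p in regions and exons, and in each family the member of the highest region and level; of other lists up to 4 genes were named by p, and Bcas2, the 1 rise of its list, was named in addition after its value was seen. Genes named for first exons were chosen after their values were seen. Alternatives were other pseudocounts, filters, winscore thresholds, maps, centring, the RPKM table, the replicate number as a block, and leaving out each library. Promoter sequences come from RefSeq (GRCm38.p6), which was not used for coordinates of the files, since these give none.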

Additional observations from a re-analysis of the deposited data

How the results depend on the processing

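The direction of change of the 7 called members was kept under the alternatives run for input level, with the exception of the RPKM table, where Srsf9 read -0.87, Hnrnph3 0.46 and Hnrnpul2 0.022; its KO columns follow the IP tracks. That table called 16 members higher and 19 lower, in place of 3 and 4, and 65.0% of all genes. Without a filter on low coverage the test called 1 higher (Sf3b5) and 0 lower, and 3.49% of 21812 genes. With the replicate number as a block, the counts were 1 higher and 4 lower, with 24.4% of all genes called. Samples of the same number did not deviate together (correlations of -0.027 in level, 0.025 in winscore and 0.011 in IP over input). With so few libraries these values cannot show whether the samples were paired in the experiment. Leaving out 1 library gave 1 to 2 members higher and 1 to 4 lower, with 15.5 to 28.0% of all genes called. For regions, exons and first or last exons 0 members passed, except without KO replicate 2: there the winscore called 1 region higher and 0 lower (12.98% of all regions), IP over input 1 higher and 3 lower (24.1%), and the last exon 1 higher and 3 lower (14.3% of all genes), and the remaining KO library is assumed to vary like the WT libraries. Leaving out any other library called no member there. Without KO replicate 1, however, some regions of other genes were called in both region tests. The share of members with a region was 41.7% in the first map (54.3% of all genes), 77.1% at a winscore of at least 1 (79.3%), 16.7% at 3 (35.9%) and 93.8% in the mean WT map (82.9%). In maps of WT IP 1 and WT IP 2 alone, chosen after seeing the data, it was 91.7 and 95.8%, against 80.3 and 88.2% of all genes. The shallow WT and KO IPs limit these values: where a window has no IP coverage, the winscore depends on the pseudocount of 1.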
